A study of Homo sapiens with 6 samples.

Results

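The cytosolic nucleic acid sensors are the proteins by which a cell detects viral or misplaced RNA and DNA, together with their adaptors and the enzymes that restrain them. The set was chosen by name, as the genes of the count table whose symbol equals one of 10 listed names, and 7 of the 22989 genes in the table matched. Another 2 listed genes have a row under their current name only, Cgas for Mb21d1 and Sting1 for Tmem173, and they are described beside the 7 but counted apart from them. No row carried the name Trex1, whose expression was not analysed here.

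The series holds 6 RNA sequencing libraries, 3 labelled LINC00115 KD and 3 labelled WT, all described as paclitaxel (PTX)-resistant breast cancer stem cells (BCSC) of MDA-MB-231, a human triple-negative breast cancer line. LINC00115 is a long noncoding RNA, targeted in the KD cells by a short hairpin RNA. The study sorted its BCSC for high aldehyde dehydrogenase activity and selected infected cells with puromycin. It names a control hairpin in other knockdown experiments but no control for this comparison, where the labels say WT. Whether the WT cells carried a hairpin is not given. The study names the hairpin sh115-2 for this comparison, while the labels number the KD libraries sh115-1 to sh115-3, as their replicates are numbered. The labels do not say whether the libraries came from separate cultures, so the p-values given here measure the spread between these libraries only, which may be technical.

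The library totals lay between 36979221 and 38799331 counts. The chi-square per degree of freedom, 1 where only sampling noise separates libraries, was 3.94 to 7.96 for pairs within a group and 224 to 246 for pairs between the groups, and none was deposited a second time under another name. The table goes against its species label in how it names genes: 4648 symbols are written Gm and a number and 1135 end in Rik, forms used for mouse genes without a functional name, and 398 of these reached 100 counts in each library of 1 group or of both. Only 16 of the 22989 symbols equal a current human symbol as written. The counts thus carry the names of a mouse annotation, and whether the RNA is that of the human line was not tested. Symbols are therefore printed as the table gives them, and no position is given for them. The table holds 0 genes named LINC00115, so the knockdown could not be checked and every direction rests on the labels. Of the 7 carcinoma markers, Krt8, Krt18, Vim and Cd44 were abundant, with Krt8 and Krt18 higher in KD (1.59-fold and 1.83-fold), while Epcam had between 0 and 5 counts in any library and Aldh1a3 between 0 and 4. The aldehyde dehydrogenase gene Aldh1a1 had 12, 8 and 17 counts in WT and 52, 39 and 41 in KD and was the 1 of the 7 called higher, at the thresholds given with the sensors' results. Of the receptors that define triple-negative cells by their absence, Pgr had between 0 and 3 counts in any library, Esr1 had 0.698 ± 0.0678 normalized CPM in WT and 2.56 ± 0.285 in KD (CPM is defined with the sensors' values) and was called higher, and Erbb2 had 17.0 ± 1.27 and 27.6 ± 0.534 (SD, n = 3 each) and was higher without being called.

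RNA in the cytosol is detected by 3 related helicases. RIG-I (Ddx58) binds the ends of viral RNA, MDA5 (Ifih1) binds long double-stranded RNA, and LGP2 (Dhx58), which lacks the signalling domains of the others, modulates both. RIG-I and MDA5 signal through MAVS on the mitochondrial surface. DNA in the cytosol is detected by cGAS (Cgas), whose cyclic dinucleotide product activates STING (Sting1). TLR3 senses double-stranded RNA in endosomes, and PKR (Eif2ak2) answers it by phosphorylating the initiation factor eIF2. ADAR1 (Adar) edits adenosines in the cell's own double-stranded RNA and so keeps it from MDA5. Both routes end in kinases and interferon regulatory factors that induce type I interferon, and many of the sensor genes are in turn induced by interferon through the interferon-stimulated response element (ISRE) in their promoters.

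To show such elements in letters, the human promoters of the set were searched in RefSeq's windows of build GRCh38.p14, which run from 250 bases before each gene's start to 50 bases from it. The windows are human while the table's symbols are written as for mouse genes, so they serve as background to the counts. Of the 10 listed genes 7 had a window, and DHX58, CGAS and STING1 did not. The ISRE was searched on both strands as GAAA, any 2 bases and GAAA again. It was found for 3 of them, IFIH1, TLR3 and EIF2AK2, and its letters are in a window of 4.38% of the 27305 genes that have one (3.57% of all 35116 windows). The windows of those genes are printed from 50 bases before the first match to the tenth base of the gene, with the matches in capitals.
IFIH1, chr2:162318675-162318893, minus strand: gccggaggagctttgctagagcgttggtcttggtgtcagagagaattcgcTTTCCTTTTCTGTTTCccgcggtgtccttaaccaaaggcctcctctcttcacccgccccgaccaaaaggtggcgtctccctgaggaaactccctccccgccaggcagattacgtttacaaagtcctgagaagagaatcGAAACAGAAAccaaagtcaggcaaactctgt
TLR3, chr4:186069102-186069165, plus strand: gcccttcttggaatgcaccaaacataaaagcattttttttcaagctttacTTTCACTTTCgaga
EIF2AK2, chr2:37156971-37157036, minus strand: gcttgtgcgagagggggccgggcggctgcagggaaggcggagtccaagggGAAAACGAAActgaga

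IFIH1 held 3 matches. Those starting 159 and 153 bases before the start lie on the opposite strand and overlap, and the one starting 21 bases before it reads along the gene. The match in TLR3 started 4 bases before the start on the opposite strand, and that in EIF2AK2 6 bases before it on the gene's own strand. The gamma-activated site, searched as TTCNNNGAA, which is in a window of 9.38% of those genes (7.66% of the windows), was found for TLR3 only among these genes, at 178 and 50 bases before the start. Neither motif was in the windows of RIGI (the current name of DDX58), MAVS, ADAR or TREX1. A match of letters is a description and no measured binding site.

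To determine how the sensors differed between the groups, normalized CPM (read counts as a share of the library total, scaled by TMM, a method that centres the bulk of genes) were compared and tested with edgeR's quasi-likelihood test over 13497 genes. A gene is said to be higher or lower at a Benjamini-Hochberg adjusted p under 0.05, and called only where the fold change is also over 2. Log2 fold changes are given ± their standard error. All 7 members were higher in the KD libraries at an adjusted p under 0.05, against 36.7% of all genes tested. The members were listed with earlier results of these data known, so such shares describe the list and test nothing. Called higher were 3 of the 7, Ifih1, Dhx58 and Tlr3, against 10.2% of all genes tested, and 0 were called lower, against 9.98%. No member was lower at an unadjusted p under 0.05 either (0 of 7), and DESeq2's Wald test called 0 lower. The median log2 fold change of the 7 was 0.98, and that of all genes tested was −0.0061. In each of the 7, every KD library lay above every WT library, which also held for 37.8% of the genes tested. Of the 2 genes under current names, Cgas was called higher and Sting1 was lower without being called. In these bulk libraries, a change in the RNA of every cell and a change in the share of cells that express a gene cannot be told apart.

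**Figure D1:**
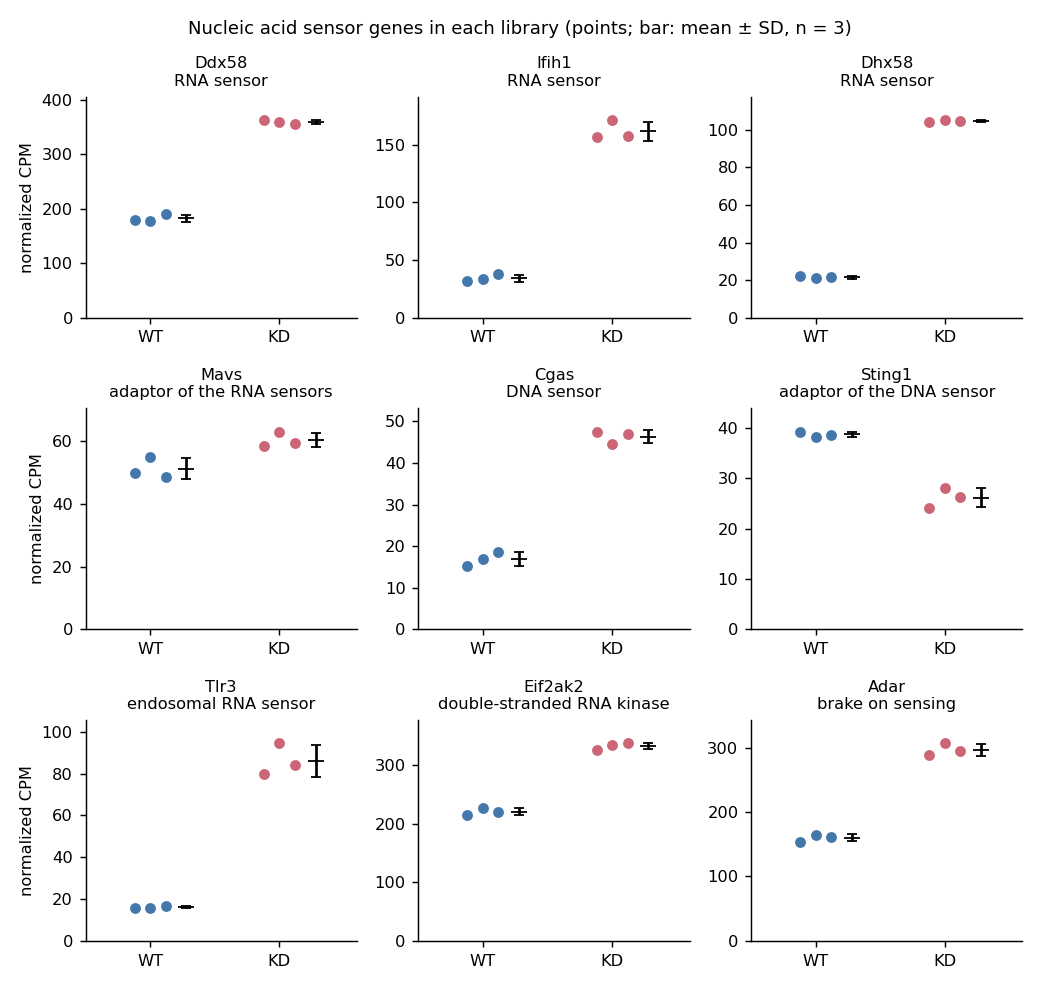
Normalized CPM (y axis, from 0, a separate scale for each gene) of the 9 sensor genes in the 3 WT and 3 LINC00115 KD libraries. Points are libraries and the bar beside them is the mean ± SD (n = 3). The groups do not overlap in any panel, and only Sting1 has its KD libraries below the WT libraries. Of all genes tested, 37.8% had every KD library above every WT library and another 37.8% every KD library below.

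Among the helicases, Ifih1, the sensor of long double-stranded RNA, had 31.8, 33.5 and 37.6 normalized CPM in the WT libraries and 156, 171 and 157 in the KD libraries. The lowest KD library thus stood far above the highest WT library. The mean was 34.3 ± 2.98 in WT and 161 ± 8.32 in KD (SD, n = 3 each), and its log2 fold change was 2.23 ± 0.05 (adjusted p = 3.20e-28, edgeR), or 4.70-fold.

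Dhx58, the modulator without signalling domains, had 22.4, 21.0 and 21.4 normalized CPM in WT and 104, 105 and 104 in KD. Its KD libraries agreed closely with each other, with a coefficient of variation of 0.503%, the smallest of any member in either group. The change from 21.6 ± 0.741 to 104 ± 0.525 (SD, n = 3 each) was 4.84-fold (log2 fold change 2.27 ± 0.05, adjusted p = 2.17e-28, edgeR).

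Ddx58, the RIG-I gene, moved less. It had 180, 177 and 190 normalized CPM in WT and 362, 360 and 355 in KD. The groups were well apart, but the ratio of their means lay just under the fold-change threshold. From 182 ± 6.74 to 359 ± 3.80 (SD, n = 3 each), the log2 fold change was 0.98 ± 0.04 (adjusted p = 6.02e-23, edgeR), or 1.97-fold. Without WT replicate 3, the highest of its group, the log2 fold change was 1.01 and Ddx58 was called.

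The difference between the helicases was followed in ratios of counts within a library, which do not depend on scaling. In all, 9 ratios were compared by an exact two-sided permutation test of their log2 values, and they were chosen after the values were seen. With 3 libraries against 3, that test can give no p under 0.1. The ratios restate differences between the members' fold changes, so a lack of overlap adds no support to them. How often pairs of other genes separate in this way was not counted. For each Ddx58 count there were 0.188 ± 0.0107 counts of Ifih1 in WT and 0.450 ± 0.0230 in KD (SD, n = 3 each), with no overlap (exact p = 0.1, adjusted 0.1125). For Dhx58 the ratio was 0.119 ± 0.00589 in WT and 0.291 ± 0.00391 in KD, also without overlap and with the same p. The ratio of Dhx58 to Ifih1 was 0.633 ± 0.0678 in WT and 0.648 ± 0.0298 in KD, and here the groups overlapped (exact p = 0.7). Ifih1 and Dhx58 thus both stood higher relative to Ddx58 in every KD library, and a change in the ratio of one to the other was not detectable. Of all counts of the 3 helicases, Ddx58 took 76.5 ± 0.284% in WT and 57.5 ± 0.816% in KD, Ifih1 14.4 ± 0.766% and 25.8 ± 0.951%, and Dhx58 9.08 ± 0.484% and 16.7 ± 0.223% (SD, n = 3 each). These shares are not corrected for gene length, so they compare a gene between the groups and not the genes with each other.

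**Figure D2:**
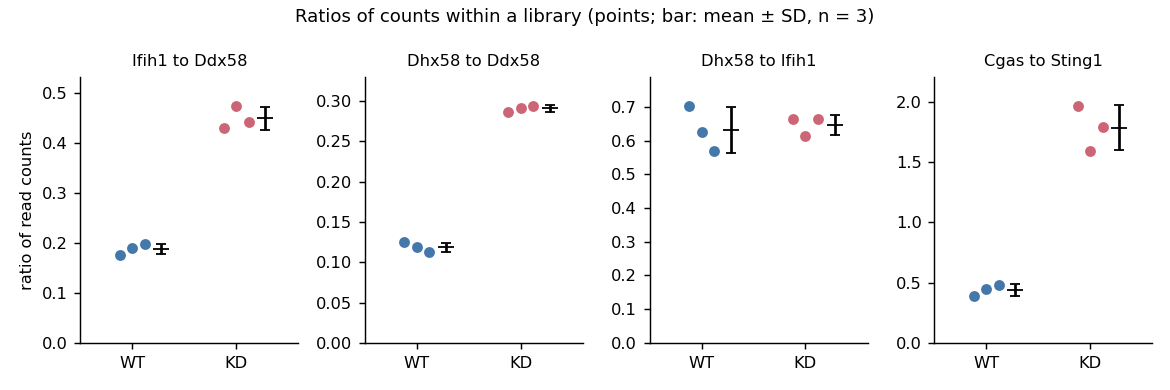
Ratios of read counts of 2 genes within a library (y axis, from 0) in the 3 WT and 3 LINC00115 KD libraries. Points are libraries and the bar is the mean ± SD (n = 3). The ratios of Ifih1 and of Dhx58 to Ddx58 and that of Cgas to Sting1 are higher in every KD library, while Dhx58 to Ifih1 overlaps between the groups.

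Mavs, the adaptor that RIG-I and MDA5 share, changed least among the members. It had 49.7, 54.9 and 48.6 normalized CPM in WT and 58.5, 62.8 and 59.4 in KD, so that the lowest KD library was close to the highest WT library. From 51.1 ± 3.33 to 60.2 ± 2.31 (SD, n = 3 each), the log2 fold change was 0.24 ± 0.06 (adjusted p = 0.000295, edgeR), or 1.18-fold. Relative to it, Ddx58 had 3.58 ± 0.340 counts per Mavs count in WT and 5.97 ± 0.236 in KD, Ifih1 0.675 ± 0.0869 and 2.68 ± 0.0390, and Dhx58 0.424 ± 0.0370 and 1.74 ± 0.0575 (SD, n = 3 each). None of these ratios overlapped between the groups (exact p = 0.1 and adjusted 0.1125 for each), which restates the smaller change of Mavs.

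On the DNA side, the sensor and its adaptor went opposite ways. Cgas, the DNA-binding synthase of the cyclic dinucleotide, had 15.3, 17.0 and 18.7 normalized CPM in WT and 47.5, 44.6 and 46.9 in KD. It rose 2.73-fold, from 17.0 ± 1.70 to 46.3 ± 1.50 (SD, n = 3 each), and its log2 fold change was 1.45 ± 0.07 (adjusted p = 9.08e-19, edgeR). Sting1, the receptor of that dinucleotide, had 39.2, 38.2 and 38.6 in WT and 24.1, 28.1 and 26.2 in KD, with every KD library below every WT library. It was lower, from 38.7 ± 0.482 to 26.1 ± 1.96 (SD, n = 3 each), and its log2 fold change was −0.57 ± 0.07 (adjusted p = 4.38e-09, edgeR). The ratio of Cgas to Sting1 counts was 0.440 ± 0.0473 in WT and 1.78 ± 0.188 in KD, without overlap. Its exact p was 0.1, the smallest this design allows (adjusted 0.1125).

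Tlr3, the endosomal receptor of double-stranded RNA, had the largest fitted change of the members, close to those of Dhx58 and Ifih1, from which its difference was not tested. It had 15.7, 15.8 and 16.9 normalized CPM in WT and 79.7, 94.4 and 84.2 in KD. The KD libraries varied more than those of the other members, with a coefficient of variation of 8.74%, and still lay far above WT. From 16.2 ± 0.656 to 86.1 ± 7.52 (SD, n = 3 each), it was 5.33-fold higher (log2 fold change 2.41 ± 0.07, adjusted p = 1.17e-26, edgeR).

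Eif2ak2, the PKR gene, had 214, 226 and 220 normalized CPM in WT and 326, 334 and 336 in KD. It was 1.51-fold higher, from 220 ± 5.84 to 332 ± 5.46 (SD, n = 3 each), and its log2 fold change was 0.59 ± 0.03 (adjusted p = 4.65e-17, edgeR). Adar, the editing enzyme, had 154, 164 and 162 in WT and 289, 306 and 295 in KD. From 160 ± 5.38 to 297 ± 9.05 (SD, n = 3 each), it was 1.86-fold higher (log2 fold change 0.89 ± 0.04, adjusted p = 3.48e-21, edgeR). Both were higher in every KD library and neither reached the fold-change threshold. The ratio of Adar to Ifih1 counts went from 4.67 ± 0.332 in WT to 1.84 ± 0.0436 in KD. That of Adar to Eif2ak2 went from 0.726 ± 0.00725 to 0.893 ± 0.0214 (SD, n = 3 each). Both were without overlap (exact p = 0.1 and adjusted 0.1125 for each). The deposited values are counts per gene, so the isoforms of Adar could not be separated.

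**Figure D3:**
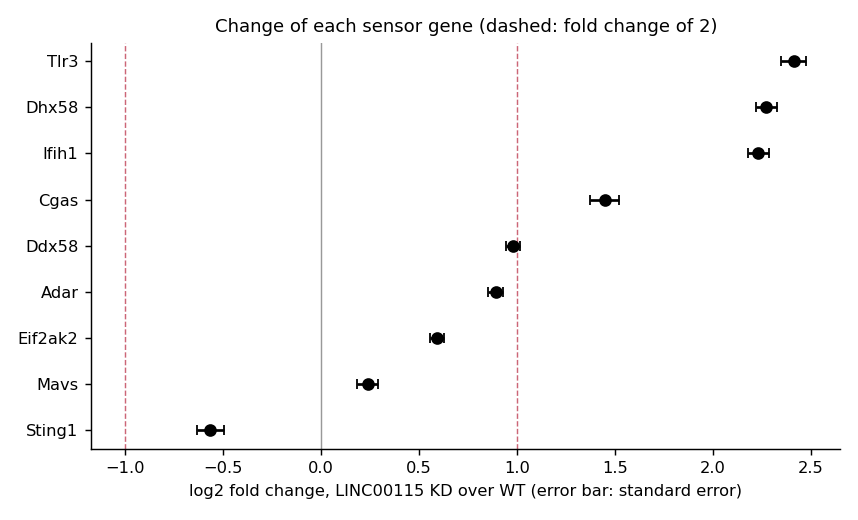
Log2 fold change of LINC00115 KD over WT (x axis) with its standard error for the 9 sensor genes, from edgeR's fit to 3 libraries a group. Dashed lines mark a fold change of 2. Tlr3, Dhx58 and Ifih1 lie between 2.23 and 2.41, Cgas at 1.45, Ddx58, Adar, Eif2ak2 and Mavs between 0.24 and 0.98, and Sting1 at −0.57.

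Among all 13497 genes tested, 465 had a larger log2 fold change than Tlr3, 507 a larger one than Dhx58 and 517 a larger one than Ifih1. For Cgas these were 901 genes and for Ddx58 1462. Mavs had 35.4% of the genes above it, and Sting1 had 20.8% of the genes below it.

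The genes around the sensors were described with a list of 110 genes in 10 roles, also chosen with earlier results known. Of these, 105 were in the table under the listed name and 99 were tested. Past the adjusted p threshold, 49 of the 99 stood higher in KD and 27 lower. Of all genes tested, 36.7% were higher and another 36.7% lower. Called higher were 10 (10.1% of those tested) and called lower 4 (4.04%), against 10.2% and 9.98% of all genes tested. Of those 10, Rnf125, Tlr7 and Ifnb1 had enough counts to be tested only through KD and could hardly be called lower. The share called higher is thus that of all genes, and the median log2 fold change of the list was 0.14. The large changes sat in few genes. The counts by role below stand against the same shares of all genes tested. These were 36.7% higher, 36.7% lower, 10.2% called higher and 9.98% called lower.

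**Figure D4:**
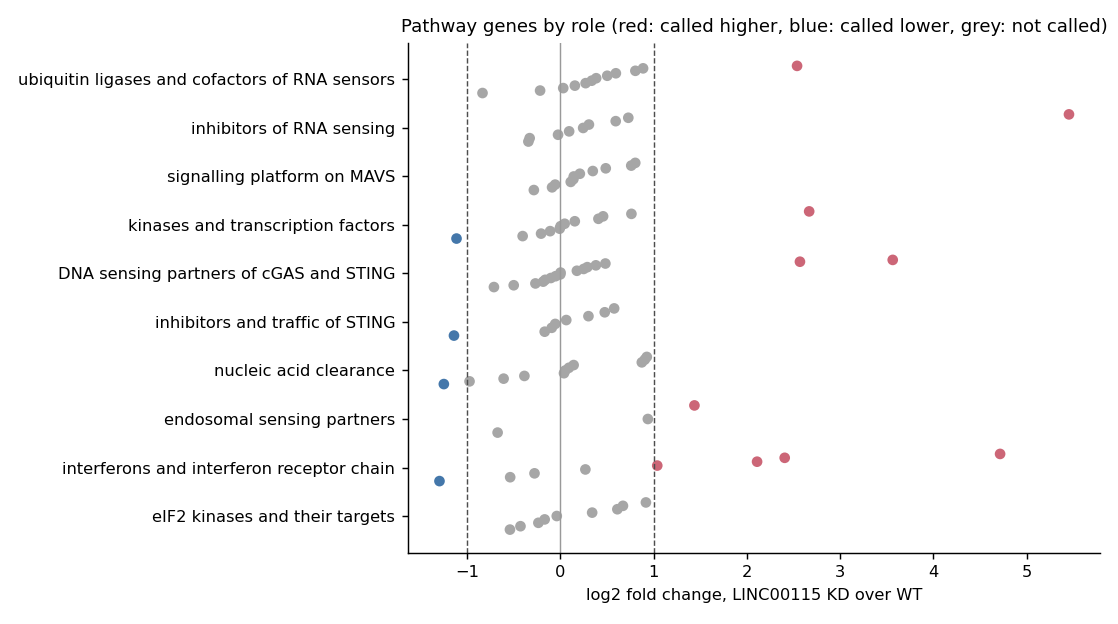
Log2 fold change of LINC00115 KD over WT (x axis) of the 99 tested pathway genes, grouped by role. Each point is a gene, coloured where it was called, and dashed lines mark a fold change of 2. Most genes lie within the dashed lines, with 10 called higher and 4 called lower.

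Of the ubiquitin ligases and cofactors of the RNA sensors, 8 of 12 were higher and 2 lower, and 1 was called. This was Ddx60, a helicase that acts with RIG-I, at 564, 525 and 537 counts in WT and 3094, 3262 and 3091 in KD. Its log2 fold change was 2.54 ± 0.06 (adjusted p = 9.65e-28, edgeR).

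Of 9 inhibitors of RNA sensing tested, 6 were higher and 2 lower, and 1 was called, Rnf125, a ubiquitin ligase that marks RIG-I and MAVS for degradation. It had 2, 1 and 1 counts in WT and 53, 74 and 64 in KD. As a ratio of summed counts, this was 47.7-fold, with a 95% exact interval of 18.3 to 177 that covers counting error only. Of 11 genes of the signalling platform on MAVS, such as Traf3 and Tradd, 7 were higher and 1 lower, also at an unadjusted p under 0.05, and 0 were called by edgeR or by DESeq2.

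Among 12 kinases and transcription factors below the adaptors, 5 were higher and 4 lower. Irf7, the interferon regulatory factor that amplifies the response, had 71.7, 69.3 and 73.4 normalized CPM in WT and 452, 443 and 467 in KD (log2 fold change 2.67 ± 0.04, adjusted p = 1.00e-34, edgeR). Ikbke, a kinase of the interferon regulatory factors, went the other way, with 81.4, 70.9 and 68.6 in WT and 33.0, 36.1 and 32.9 in KD. It was called lower (log2 fold change −1.11 ± 0.06, adjusted p = 1.20e-17, edgeR).

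Of the 16 DNA sensing partners, 7 were higher and 5 lower, and the 2 called were both higher. Zbp1, a sensor of nucleic acids in the Z conformation, had 25.2, 25.6 and 31.3 normalized CPM in WT and 315, 336 and 321 in KD (log2 fold change 3.56 ± 0.05, adjusted p = 5.47e-34, edgeR). Aim2, the DNA sensor that forms an inflammasome, rose from 5.74 ± 0.569 to 34.1 ± 1.99 (SD, n = 3 each). Its log2 fold change was 2.57.

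Of 8 inhibitors and traffic genes of STING tested, 3 were higher and 2 lower. Rnf5, a ubiquitin ligase that degrades STING, was called lower, from 41.7 ± 3.72 to 18.9 ± 1.70 normalized CPM (SD, n = 3 each), with a change on the log2 scale of −1.14. Of the 11 genes of nucleic acid clearance, 2 were higher and 3 lower. The called one was Rnaseh2c, a subunit of the enzyme that cuts RNA in RNA:DNA hybrids, from 20.2 ± 3.04 to 8.48 ± 0.384 (SD, n = 3 each), and its log2 fold change was −1.25 ± 0.11 (adjusted p = 1.27e-12, edgeR). The other subunits of that enzyme, Rnaseh2a and Rnaseh2b, had log2 fold changes of 0.05 and 0.14 and did not pass the test (adjusted p = 0.53 and 0.24, edgeR). Rnaset2b, with counts of 38, 69 and 681 in WT and 311, 50 and 44 in KD, varied too much between libraries to give a direction, its log2 fold change running from −2.46 to 1.32 over the alternatives, and mouse has a near-identical copy of it.

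Of the 3 partners of endosomal sensing tested, Ticam1, the adaptor of TLR3, was lower, from 22.7 ± 1.23 to 14.2 ± 1.07 normalized CPM (SD, n = 3 each), with a change on the log2 scale of −0.67. Unc93b1, which carries these receptors to the endosome, was higher (log2 fold change 0.94). It was called without KD replicate 1, at a log2 fold change of 1.03. Tlr7, a receptor of single-stranded RNA, was called higher on 7, 4 and 8 counts against 16, 23 and 13, and this call was lost in 8 of 12 alternatives, among them those without any one WT library or without KD replicate 1 or 2.

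Ifnb1, the interferon gene induced by these sensors, had 1, 5 and 1 counts in WT and 40, 66 and 87 in KD. Every KD library was above every WT library, and the ratio of summed counts was 27.5-fold, with a 95% exact interval of 13.1 to 69.4 that covers counting error only. In normalized CPM it reached only 1.71 ± 0.633 in KD (SD, n = 3). The genes Ifna2, Ifna4, Ifnl2 and Ifnl3 had between 0 and 5 counts in any library and were not tested.

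Of the 8 genes of the interferon receptor chain tested, Ifnb1 included, 4 were called higher and 1 lower. Ifnb1 had enough counts to be tested only in KD, so its call as higher was close to fixed. The interferon genes too low in both groups are not among the 8. The share called higher is raised by both. Over all genes tested, 10.2% were called higher and 9.98% lower. Stat2, a transcription factor below the receptor, rose from 52.5 ± 4.35 to 226 ± 5.05 normalized CPM (SD, n = 3 each), and its log2 fold change was 2.11. Irf9, its DNA-binding partner, was named after its values were seen and had a log2 fold change of 1.04. It was not called with upper quartile scaling or without WT replicate 1, and its lowest value over the alternatives was 0.98. Tyk2, a kinase bound to the receptor, was called lower, from 50.6 ± 4.22 to 20.6 ± 0.484 (SD, n = 3 each), with a change on the log2 scale of −1.30. The receptor chain Ifnar1 was lower at a log2 fold change of −0.54 (adjusted p = 4.03e-12, edgeR) and Ifnar2 higher at 0.27 (adjusted p = 0.000172, edgeR).

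Among the eIF2 kinases and their targets, 4 of 9 were higher and 4 lower, also at an unadjusted p under 0.05, and 0 were called by edgeR or by DESeq2. The sister kinases of Eif2ak2 did not share a direction. Eif2ak1, the kinase activated by haem deficiency, was higher at a log2 fold change of 0.67, while Eif2ak3, the kinase of the unfolded protein response, and Eif2ak4, that of amino acid shortage, were lower at −0.43 and −0.54. Atf4, whose translation rises when eIF2 is phosphorylated, was higher at 0.92 and Ddit3, a target of Atf4, lower at −0.17 (adjusted p = 0.0311, edgeR).

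Markers of other cell types were measured beside these results. Of all genes tested, 10.2% were called higher and 9.98% lower. Summed over the 5 lung markers listed, all 5 called higher, the WT libraries held 0 counts and the KD libraries between 62.3 and 74.4 normalized CPM. With no WT counts, these 5 were tested through the KD libraries alone and could only be called higher. The 5 kidney markers summed to between 9.08 and 9.56 in WT and 22.0 and 26.4 in KD, with 3 called higher. Those 3, Kap, Slc34a1 and Umod, had at most 1 count in any WT library, so the same holds for them. Most of the WT sum was Cubn, which went the other way, from 8.28 ± 0.132 to 6.07 ± 0.361 (SD, n = 3 each). Of the leukocyte markers, 13 had a row, 5 were tested and 4 called higher. One of these, S100a9, had 0, 0 and 2 counts in WT and was likewise tested through KD alone. The list summed to between 35.2 and 35.9 in WT and 99.8 and 111 in KD, most of it S100a8. The defining leukocyte gene Ptprc had between 5 and 13 counts in any library and Cd3e had 0 in all. The 5 endothelial markers summed to between 0.318 and 0.664 in WT and 56.8 and 59.4 in KD, nearly all of it Cdh5, while Pecam1 had at most 19 counts in any library. The 5 fibroblast markers summed to between 173 and 193 in WT and 75.6 and 77.4 in KD, with 2 called lower and nearly all of the sum from Pdgfra. The part of these cell types in the changes of the sensors was not tested.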

How the data were processed

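The members and lists were chosen with earlier results of these data known. The authors trimmed adapters and mapped the reads with HISAT2 at default settings to hg19 per the paper's methods, while the submitters' processing notes name hg38 and featureCounts. They deposited raw counts per gene for 22989 genes in 6 libraries (36979221 to 38799331 counts each). Annotation and strand are not given in the sources used here, so paralogs and overlapping genes are uncertain. Here counts were filtered with filterByExpr (minimum count 10, minimum total 15), scaled by TMM (factors 0.990 to 1.01) and tested in R 4.3.3 with edgeR 4.0.16 (quasi-likelihood, group only, Benjamini-Hochberg over 13497 genes). Standard errors were derived from the fold change and F (its size over the root of F). The thresholds are those of the study. The biological coefficient of variation was 5.21%. The procedure was also run on simulated data (seed 11) with the same dispersion for every gene. Its outcome is not given and does not bear on calls from few counts.

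Symbols were matched without regard to case. Named are all members, the pathway genes past both thresholds (up to 3 a role and direction), Ifnb1 and the sister kinases of Eif2ak2. Other genes were named after their values were seen. Alternatives were other scalings, other filters, each library left out, DESeq2 1.42.0, no fold-change threshold and a block for the replicate number. Matching by current names was added after the data were seen. A gene counted in the pathway list is not reported here by name.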

Additional observations from a re-analysis of the deposited data

How the results depend on the processing

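Of 117 fits of the 9 sensor genes under 13 alternatives, 0 reversed the direction and 117 had an adjusted p under 0.05. The call changed in 1 of them, Ddx58 without WT replicate 3 (log2 fold change 1.01). With each library left out, the log2 fold changes ranged from 0.96 to 1.01 for Ddx58, 2.18 to 2.31 for Ifih1, 2.25 to 2.30 for Dhx58, 0.20 to 0.29 for Mavs, 2.35 to 2.47 for Tlr3, 0.57 to 0.61 for Eif2ak2, 0.86 to 0.92 for Adar, 1.38 to 1.52 for Cgas and −0.61 to −0.50 for Sting1. Members called higher stayed between 3 and 4 and pathway genes between 8 and 10 higher and 4 and 5 lower in these fits.

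Without a fold-change threshold, 7 members, 49 pathway genes and 4952 of all genes were higher, and 27 pathway genes and 4960 of all genes lower. With at least 10 counts in every library, which removes genes with few counts, 903 of all genes were called higher and 919 lower. Of the pathway genes, 7 were then called higher and 4 lower. With the current names included, 4 members were called higher.

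The replicate numbers did not pair the libraries: the correlations of same-numbered libraries' deviations from their group means lay between -0.0178 and 0.00410. With the replicate block, 3 members and 9 pathway genes were called higher, and 0 and 4 lower.
At this depth Tlr7 and the Ifna and Ifnl genes stood on too few counts to give a level.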

Other observations

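The listed genes Dak and March5 have rows under their current names, Tkfc and Marchf5, and both act against RNA sensing, Tkfc by binding MDA5 and Marchf5 by removing active MAVS. Marchf5 had 2344, 2508 and 2535 counts in WT and 4041, 3709 and 4050 in KD, with no overlap (log2 fold change 0.67 ± 0.05, adjusted p = 6.21e-15, edgeR). Tkfc had 292, 294 and 332 counts in WT and 410, 353 and 436 in KD (log2 fold change 0.38 ± 0.12, adjusted p = 0.00495, edgeR). Neither reached a fold change of 2.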
